A study of Canis lupus familiaris with 15 samples.

Results

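PDGFRA (ENSCAFG00000002057) and CD248 (ENSCAFG00000028875) are 2 of the 23630 genes whose messenger RNA was counted in canine corpora lutea (CL), and both were found in the count table by their identifiers. Both were chosen from measured values of the same dogs. PDGFRA was chosen on the contrast “luteal regression over luteolysis”, and CD248 on “mid-gestation over luteolysis” and “luteolysis over antigestagen”. In these contrasts the values of the respective gene are a description, without a test.

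The CL came from 15 healthy cross-breed bitches aged 2 to 8 years, with 1 library per dog. The 5 mid-gestation dogs were pregnant and at days 35 to 40 after ovulation, and received no treatment. The 5 antigestagen dogs were pregnant at days 40 to 45 and had been given aglepristone, a blocker of the progesterone (P4) receptor, in 2 injections of 10 mg/kg, 24 h apart, with CL collected 24 h after the last. The 3 luteolysis dogs were pregnant and prepartum. Their plasma P4 was followed every 6 h from day 58, and CL were taken once it had been under 2 to 3 ng/ml in 3 measurements. The 2 luteal regression dogs were not pregnant and were at day 65. The treated dogs were also at a later stage than the mid-gestation dogs, so that treatment and stage cannot be told apart. Beyond a date shared by all, the labels name no batch. The paper names animal permits from Giessen and from Ankara but not the site of each dog. Whether site differs between the groups was not tested.

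PDGFRA encodes the alpha receptor for platelet-derived growth factors, a receptor tyrosine kinase of fibroblasts and other mesenchymal cells. Ligand binding pairs the receptors, which phosphorylate each other and recruit signalling enzymes such as SRC, PI3-kinase and PTPN11. CD248, also named endosialin, is a membrane glycoprotein with a C-type lectin domain, known from pericytes and activated fibroblasts, and it binds matrix proteins. The CL is among the most densely vascularised tissues, and its pericytes and fibroblasts surround the capillaries between the steroidogenic luteal cells.

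Total reads per dog lay between 8558743 and 26284315. Levels are given as CPM, reads per 1000000 after scaling of the libraries by TMM, a method that removes shifts caused by a few very abundant genes. The scaling factor ran from 0.823 in the antigestagen dog Zeynep to 1.23 in the luteal regression dog Lissy. The 10 most abundant genes of each dog held between 9.93% and 23.1% of its reads. The luteal cell markers paired with a name were CYP17A1, a steroid hydroxylase, and PRLR, the prolactin receptor, and both were above 0 in every dog, with lowest levels of 27.1 and 65.8 CPM. STAR and CYP11A1, the defining genes of luteal steroidogenesis, were not analysed here, and neither were the pericyte markers PDGFRB, RGS5 and CSPG4 or the fibroblast markers DCN and LUM. The cell type in which either gene was transcribed was therefore not checked. In such whole tissue, fewer cells of a type and less RNA per cell cannot be told apart.

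CD248 separated the dogs into a high and a low set. At mid-gestation it was at 23.5, 12.1, 16.7, 23.2 and 19.1 CPM in Nescafe, Turgay, Dardanel, Gold and Kurtulus. In the antigestagen dogs Citir, Suzan, Birnur, Seran and Zeynep it was at 12.9, 18.5, 19.7, 25.8 and 19.7 CPM. These groups overlapped over almost their whole range. The luteolysis dogs Amy, Kimba and Senta were at 4.50, 5.02 and 4.58 CPM, and the luteal regression dogs Lissy and Mara at 7.38 and 7.34 CPM. The lowest of the 10 mid-gestation and antigestagen dogs (12.1 CPM) was thus 1.64-fold above the highest of the 5 luteolysis and luteal regression dogs (7.38 CPM). This is a description, since CD248 was chosen on the mid-gestation, antigestagen and luteolysis dogs. The share of all genes that separate the dogs in this way was not counted.

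**Figure D1:**
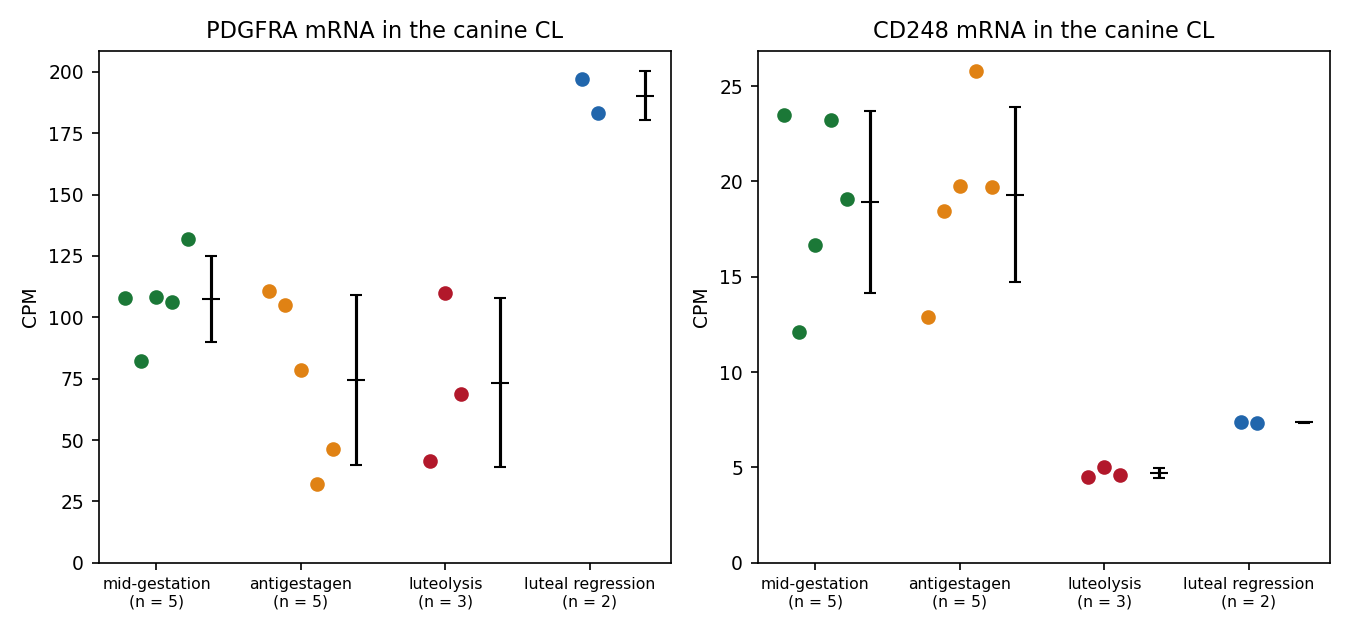
CPM (y axis, linear) of PDGFRA on the left and CD248 on the right in each of the 15 dogs by group; points are dogs, and the black bar beside them is the mean ± SD. PDGFRA is highest in the 2 luteal regression dogs (183 and 197 CPM), whereas CD248 is at 12.1 CPM or more in mid-gestation and antigestagen dogs and at 7.38 CPM or less in the others.

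Group means of CD248 were 19.3 ± 4.59 CPM (SD, n = 5) after antigestagen, 18.9 ± 4.77 CPM at mid-gestation, 7.36 ± 0.0326 CPM (n = 2) in luteal regression and 4.70 ± 0.279 CPM (n = 3) in luteolysis. The spread of CD248 was low in the last 2 of these groups. Its SD of log2 CPM was 0.083 over the luteolysis dogs and 0.0063 over the 2 luteal regression dogs. Of all genes in the fit, 3.66% and 2.34% had a lower one. CD248 was chosen on the luteolysis dogs, and 2 dogs measure a spread poorly, so nothing is read from these ranks. Among antigestagen dogs the SD was 0.36, close to the median gene (0.41). The values rest on 60 to 127 reads in luteolysis and on 116 to 531 reads in mid-gestation and antigestagen dogs. In Amy, the dog with the fewest, the 60 reads are 3.94 per 1000000 total reads, with a 95% binomial interval (Clopper-Pearson) of 3.00 to 5.07, which covers counting error alone.

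In both contrasts on which CD248 was chosen the groups did not overlap. The log2 ratio of “mid-gestation over luteolysis” was 2.01 (SE 0.26, 4.02-fold). That of “luteolysis over antigestagen” was −2.04 (SE 0.26), a level 4.10-fold higher after treatment. Differentially expressed genes (DEG) were defined by a p-value below 0.01 and a Benjamini-Hochberg adjusted p-value below 0.1 in the quasi-likelihood F-test of edgeR. Of all genes tested, 8.16% and 4.75% were DEG in these contrasts, and 9.76% and 7.74% did not overlap between the groups. Nothing is read from these shares for CD248, because the contrasts had chosen it.

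The comparison of mid-gestation with antigestagen covers P4 withdrawal before term together with a later stage, which cannot be told apart. CD248 was not a DEG in it, with a log2 ratio of −0.032 (95% interval −0.47 to 0.41, edgeR adjusted p = 0.988), and the groups overlapped. Both groups are those on whose high values CD248 was chosen, so that like levels in them are not independent of the choice. Of the 14399 genes tested, 0% were DEG by edgeR in this contrast and 1.24% did not overlap. An unadjusted p-value below 0.05 was found for 980 of them, and DESeq2 and limma-voom gave 87 and 18 DEG. The sign of a value this close to 0 turned with limma-voom and without Turgay, Dardanel or Seran (0.063, 0.095, 0.029 and 0.087).

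In luteal regression CD248 was lower than in mid-gestation and in antigestagen dogs, by 2.57-fold and 2.63-fold. The log2 ratios were −1.36 (SE 0.30, unadjusted p = 0.000336, edgeR adjusted p = 0.319) and −1.39 (SE 0.30, unadjusted p = 0.000278, edgeR adjusted p = 0.149), so that CD248 was not a DEG in either. The mid-gestation and antigestagen dogs are those on whose high values CD248 was chosen, and the p-values are not independent of that. Every dog of the lower group was below every dog of the other. The groups likewise did not overlap for 30.5% and 29.7% of all genes, with 2 dogs in luteal regression. The part of group size in these shares was not tested. In these contrasts 0% of the genes were DEG by edgeR (14685 and 14578 tested, 2073 and 2496 with an unadjusted p-value below 0.05), against 332 and 920 genes by DESeq2 and 2741 and 2408 by limma-voom. CD248 was among the DEG of both of these tools in both contrasts, at adjusted p-values of 0.00220 and 0.00458 against mid-gestation and of 0.000721 and 0.00288 against antigestagen. With the dogs of the 2 groups alone it was a DEG against mid-gestation (edgeR adjusted p = 0.0700), and against antigestagen it became one without Citir (edgeR adjusted p = 0.0789) or without Amy (edgeR adjusted p = 0.0904). Over the alternatives the adjusted p-value ran from 0.00220 to 0.909 against mid-gestation and from 0.000721 to 0.702 against antigestagen.

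The non-pregnant dogs in luteal regression were 1.56-fold above those in luteolysis. The log2 ratio of CD248 in “luteal regression over luteolysis” was 0.64 (SE 0.30, 95% interval 0.0014 to 1.29, edgeR adjusted p = 0.266), and CD248 was not a DEG, while 5.11% of all genes were. The luteolysis dogs of this contrast are those on whose low values CD248 was chosen. Its groups did not overlap, which holds for 38.1% of all genes with 2 against 3 dogs. In the order of the means, antigestagen and mid-gestation did not differ beyond their spread. The steps from mid-gestation to luteal regression and on to luteolysis did not pass adjustment. CD248 was chosen on the mid-gestation and luteolysis dogs at the ends of these steps, so that no order is read from them.

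**Figure D2:**
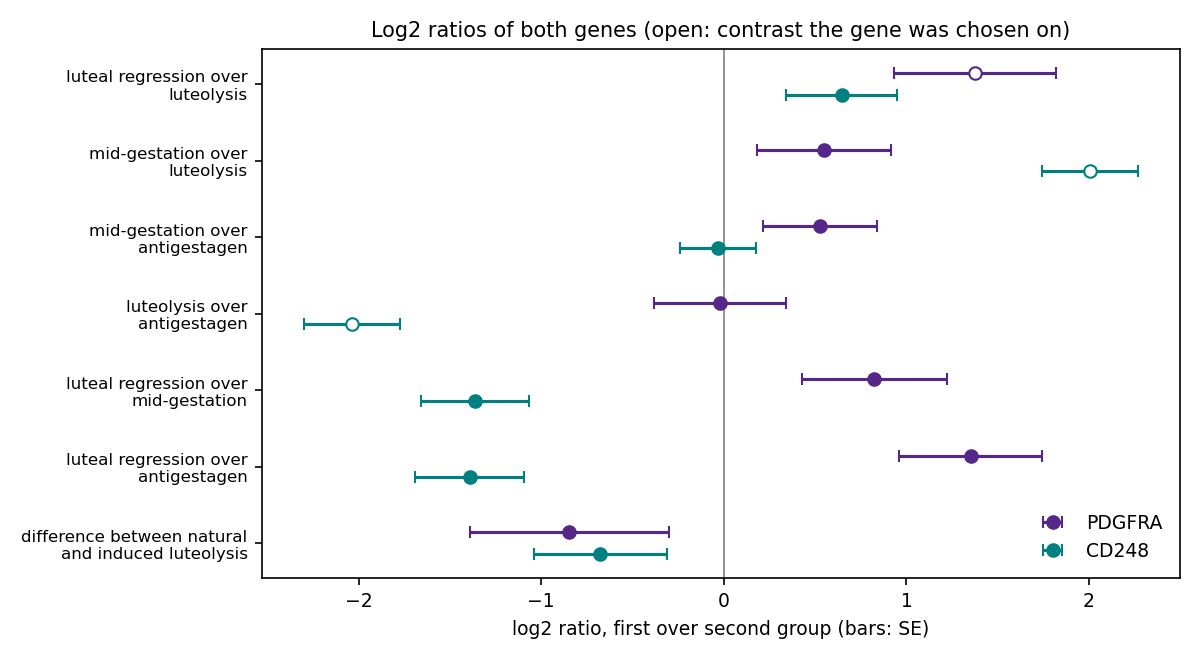
Log2 ratio (x axis) of PDGFRA (violet) and CD248 (green) in 6 contrasts and in the difference between natural and induced luteolysis; bars are SE from the edgeR fit, and open circles mark contrasts on which the gene was chosen. Where luteal regression is set against mid-gestation and against antigestagen, PDGFRA lies above 0 (0.82 and 1.35) and CD248 below 0 (−1.36 and −1.39).

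PDGFRA followed another order, with the 2 luteal regression dogs apart from the rest. It was at 197 and 183 CPM in Lissy and Mara. At mid-gestation it was at 108, 82.4, 108, 106 and 132 CPM in Nescafe, Turgay, Dardanel, Gold and Kurtulus. The lowest luteal regression dog was 1.39-fold above the highest of the 13 other dogs, Kurtulus. This too is a description, since PDGFRA was chosen on the luteal regression and luteolysis dogs. The share of all genes with such a separation was not counted. The antigestagen dogs Citir, Suzan, Birnur, Seran and Zeynep were at 111, 104.9, 78.4, 32.2 and 46.4 CPM. The luteolysis dogs Amy, Kimba and Senta were at 41.6, 109.8 and 68.6 CPM. Within these groups PDGFRA thus varied 3.44-fold and 2.64-fold, and Birnur, Seran, Zeynep, Amy and Senta were below every mid-gestation dog while Citir, Suzan and Kimba were within the mid-gestation range.

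Group means of PDGFRA were 190.2 ± 9.99 CPM (SD, n = 2) in luteal regression, 107 ± 17.5 CPM (n = 5) at mid-gestation, 74.5 ± 34.7 CPM (n = 5) after antigestagen and 73.3 ± 34.4 CPM (n = 3) in luteolysis. The SD of log2 CPM was 0.77 among antigestagen dogs and 0.70 among luteolysis dogs, above that of 81.4% and 76.9% of all genes. At mid-gestation it was 0.24, above that of 30.6% of genes. The 3 dogs with the lowest PDGFRA also had low scaling factors (0.877 in Seran, 0.823 in Zeynep and 0.875 in Amy), and their 10 most abundant genes held 19.7%, 20.6% and 20.2% of reads. In Lissy and Mara, highest in PDGFRA, the factors were 1.23 and 1.18 and the shares 9.93% and 11.9%. Dardanel had a factor of 0.866 and a share of 23.1% with PDGFRA at 108 CPM. The part of library composition in these values was not tested.

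For PDGFRA in “luteal regression over luteolysis”, on which it was chosen, the log2 ratio was 1.37 (SE 0.44, 2.59-fold) and the groups did not overlap. Against mid-gestation, luteal regression was 1.77-fold higher, with a log2 ratio of 0.82 (SE 0.40, unadjusted p = 0.0553, edgeR adjusted p = 0.360). Against antigestagen it was 2.55-fold higher, with a log2 ratio of 1.35 (SE 0.39, unadjusted p = 0.00348, edgeR adjusted p = 0.181). Both contrasts use again the luteal regression dogs on whose high values PDGFRA was chosen, so that their p-values are not independent of the choice. The groups did not overlap in either contrast, as for 30.5% and 29.7% of all genes (38.1% in the contrast that chose PDGFRA), and PDGFRA was not a DEG. It was a DEG against mid-gestation with limma-voom (adjusted p = 0.0446) and with the dogs of the 2 groups alone (edgeR adjusted p = 0.0674), and against antigestagen with DESeq2 (adjusted p = 0.0525) and limma-voom (adjusted p = 0.00968). The adjusted p-values of all alternatives lay between 0.0446 and 0.909 and between 0.00968 and 0.702, respectively.

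Among the groups of pregnant dogs, which overlapped in PDGFRA throughout, no contrast passed. Mid-gestation over luteolysis had a log2 ratio of 0.55 (SE 0.37, 95% interval −0.23 to 1.33, edgeR adjusted p = 0.431). Mid-gestation over antigestagen had 0.53 (SE 0.31, 95% interval −0.14 to 1.19, edgeR adjusted p = 0.782). The value against luteolysis was 0.27 without Amy and 0.96 without Kimba (unadjusted p = 0.0320, edgeR adjusted p = 0.267), and that against antigestagen 0.32 without Seran. Luteolysis over antigestagen had −0.021 (SE 0.36, 95% interval −0.79 to 0.75, edgeR adjusted p = 0.985). The sign of the last value depended on single dogs, with 0.25 without Amy, 0.16 without Citir, 0.14 without Suzan and 0.00098 without Senta. The means of mid-gestation, antigestagen and luteolysis, neighbours in the order of PDGFRA, did not differ beyond the spread between dogs. The luteolysis dogs are those on whose low values PDGFRA was chosen, so that p-values against them are not independent of the choice.

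Natural and induced luteolysis were compared by taking luteolysis minus luteal regression and subtracting antigestagen minus mid-gestation. This difference was −0.85 for PDGFRA (log2, SE 0.54) and −0.68 for CD248 (log2, SE 0.37). Both are a description without a test, because the term contains a contrast on which each gene was chosen, luteal regression against luteolysis for PDGFRA and luteolysis against antigestagen for CD248. Of all 14922 genes 0% were DEG by edgeR (1869 with an unadjusted p-value below 0.05, with 495 DEG by DESeq2 and 2549 by limma-voom).

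The ratio of both genes within a library does not depend on how libraries are scaled. It was taken as the log2 of CD248 over PDGFRA reads after adding 0.5 reads to each. For every read of CD248 there were 4.60, 6.79, 6.51, 4.57 and 6.91 reads of PDGFRA in the mid-gestation dogs, in the order given above. In the antigestagen dogs Citir, Suzan, Birnur, Seran and Zeynep there were 8.58, 5.68, 3.97, 1.25 and 2.36. Thus Seran and Zeynep, low in PDGFRA, had the highest shares of CD248 of all dogs. In luteolysis there were 9.23, 21.9 and 14.97 reads of PDGFRA per read of CD248 in Amy, Kimba and Senta, and in luteal regression 26.7 and 24.96. These 5 dogs had more reads of PDGFRA per read of CD248 than the other 10, which is a description, since both genes were chosen on luteolysis dogs. The nearest dogs, Amy and the antigestagen dog Citir (9.23 and 8.58), were closer than the counting error of the 60 reads of CD248 in Amy.

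The mean log2 ratio of CD248 over PDGFRA was −2.53 ± 0.31 (SD, n = 5) at mid-gestation, −1.83 ± 1.09 (n = 5) after antigestagen, −3.85 ± 0.63 (n = 3) in luteolysis and −4.69 ± 0.070 (n = 2) in luteal regression. Between mid-gestation and antigestagen, where neither gene had been chosen, the difference of −0.70 was within the spread of the treated dogs (exact permutation test, two-sided, p = 0.230, where 0.00794 is the smallest possible). Without Citir it was −1.02 (exact permutation p = 0.0397). Although this contrast chose neither gene, CD248 was chosen on high values in both groups, so that these p-values are not independent of the choice.

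**Figure D3:**
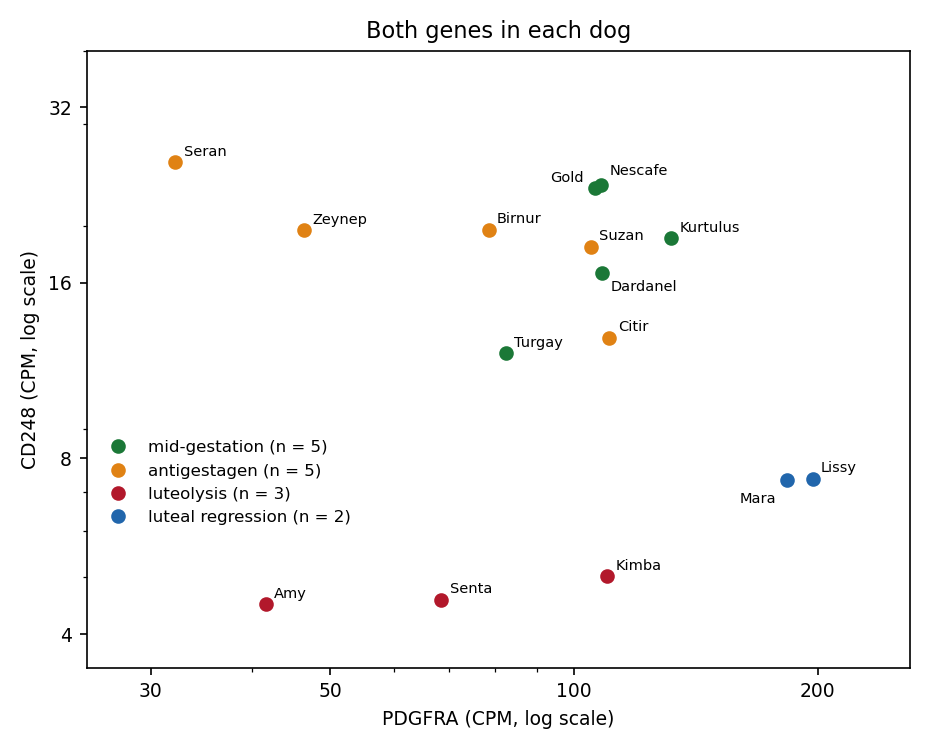
CPM of PDGFRA (x axis, log scale) against CPM of CD248 (y axis, log scale), 1 point per dog, coloured by group. Luteolysis dogs lie at the bottom over a wide range of PDGFRA (41.6 to 109.8 CPM), luteal regression dogs at the right, and the antigestagen dogs Seran and Zeynep at the left with high CD248 (25.8 and 19.7 CPM).

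Other genes could be looked up where the additional files of the study pair a name with an identifier. These files list genes selected on the same dogs, so that 36.3% of named genes were DEG here between mid-gestation and luteolysis, 23.3% between luteal regression and luteolysis and 21.5% between luteolysis and antigestagen. The medians of their log2 ratios were −0.25, −0.34 and 0.19. Counts of named genes are therefore no independent evidence of direction.

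Of the PDGF ligands and other receptors, 4 of 6 were found. PDGFA, a ligand of the alpha receptor, was higher in luteolysis (43.0 CPM on average, 22.1 to 55.6) than at mid-gestation (21.9 CPM, 14.3 to 26.3) and in luteal regression (17.3 CPM, 15.6 to 19.1), and was a DEG in both contrasts. Relative to luteolysis its log2 ratio was −0.97 at mid-gestation (SE 0.28, edgeR adjusted p = 0.0637) and −1.31 in luteal regression (SE 0.37, edgeR adjusted p = 0.0858). PDGFB, the ligand by which endothelial cells recruit pericytes, was a DEG for “mid-gestation over luteolysis”, at 58.1 CPM (40.9 to 72.5) against 30.5 CPM (26.2 to 34.5), with a log2 ratio of 0.93 (SE 0.30, edgeR adjusted p = 0.0920). PDGFD, a ligand of the beta receptor, was lower in luteolysis (120.1 CPM, 113 to 128) than in luteal regression (228 CPM) and at mid-gestation (194 CPM), with log2 ratios of 0.93 and 0.69, and was a DEG in both. PDGFRL, a receptor-like protein without a kinase, had log2 ratios of 1.40 and 0.92 in the same contrasts and was not a DEG. In “luteolysis over antigestagen” 0 of the 4 genes were DEG, with log2 ratios of 0.93 for PDGFA, −0.91 for PDGFB, −0.32 for PDGFD and −0.38 for PDGFRL, and 3 had an opposite sign to PDGFA. DEG were thus 3 of 4 between mid-gestation and luteolysis and 2 of 4 between luteal regression and luteolysis, beside 36.3% and 23.3% of named genes.

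Of 21 signalling genes downstream of PDGF receptors 6 were found. SRC, a kinase that binds the activated receptor, was higher in luteolysis than in all other groups, and a DEG in all 3 contrasts. The log2 ratio was −2.005 for mid-gestation (SE 0.33, edgeR adjusted p = 0.00890) and −1.89 for luteal regression over luteolysis, and 1.53 for luteolysis over antigestagen. Within luteolysis it ran from 74.1 to 347 CPM, and antigestagen dogs reached 93.8 CPM. The adaptor CRK and the kinase JAK1 were higher in luteolysis than at mid-gestation (log2 ratios −0.88 and −0.75). PIK3R1, the regulatory subunit of PI3-kinase, was lower in luteolysis than at mid-gestation and in luteal regression (log2 ratios 0.54 and 0.70). PTPN11 and CBL were not DEG in any contrast. DEG were 4 of 6 between mid-gestation and luteolysis (36.3% of named genes), 2 of 6 between luteal regression and luteolysis (23.3%) and 1 of 6 between luteolysis and antigestagen (21.5%).

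CD248 belongs to a small family of C-type lectin receptors whose other members are CD93, THBD and CLEC14A. These are genes of endothelial cells, and in the contrasts with luteolysis CD93 and CLEC14A had log2 ratios opposite in sign to CD248. In “mid-gestation over luteolysis” the log2 ratios were −0.82 for CD93, −0.70 for CLEC14A and 0.28 for THBD, beside 2.01 for CD248, and none of the 3 was a DEG in any contrast. MMRN2, a matrix protein of vessels that binds CD93, CLEC14A and CD248, had −0.24 and was not a DEG. LGALS3BP, a secreted glycoprotein that binds endosialin, was at 222 CPM (157 to 276) at mid-gestation, 209 CPM (136 to 334) after antigestagen, 135 CPM (111 to 159) in luteal regression and 69.4 CPM (59.1 to 89.0) in luteolysis, the order of CD248 with the highest groups exchanged. LGALS3BP was a DEG between mid-gestation and luteolysis (log2 ratio 1.68, SE 0.29, edgeR adjusted p = 0.00890) and between luteolysis and antigestagen (log2 ratio −1.59, SE 0.29, edgeR adjusted p = 0.0182). COL1A1, a chain of collagen I, which endosialin also binds, was a DEG for “mid-gestation over luteolysis” (log2 ratio 2.09, SE 0.60, edgeR adjusted p = 0.0641), at 2099 CPM (605 to 4144) against 494 CPM (249 to 832). DEG were 2 of 6 between mid-gestation and luteolysis (36.3% of named genes), 0 of 6 between luteal regression and luteolysis (23.3%) and 1 of 6 between luteolysis and antigestagen (21.5%).

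Of 34 fibroblast, stroma and mural markers besides both genes, 11 were found. In “mid-gestation over luteolysis” 3 of them were higher and 1 lower, out of 11, at a median log2 ratio of 1.30 (−0.020 over all genes and −0.25 over named genes). These 4 are a share like that of named genes (36.3%), against 8.16% of all genes. COL1A1, COL3A1 and TCF21, a transcription factor of stromal cells, were the higher ones, with log2 ratios of 2.09, 1.44 and 1.37. COL1A2, COL5A1, FBLN1 and ECM2, matrix genes, had 1.30, 1.38, 1.41 and 0.72 and were not DEG. FAP, a protease of activated fibroblasts, went the other way, with a log2 ratio of −1.43 (SE 0.32, edgeR adjusted p = 0.0254). It was at 127 CPM (43.9 to 170) in luteolysis and at 47.1 CPM (36.7 to 54.3) at mid-gestation. The 3 mural markers found also had negative log2 ratios, −0.82 for MCAM, −1.81 for TAGLN and −0.70 for MYL9, and were not DEG. The median was 1.37 over the 8 fibroblast and stroma markers and −0.82 over the mural ones. FAP was also the 1 DEG of the 11 in “luteal regression over luteolysis” (log2 ratio −1.63), where 23.3% of named genes were DEG. The median was 0.83 there (−0.047 over all genes and −0.34 over named genes). It was 1.04 over the 8 fibroblast and stroma markers and −1.33 over the 3 mural ones.

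In “luteolysis over antigestagen” 3 of the 11 markers were higher in luteolysis and 0 lower, at a median log2 ratio of −0.76 (0.022 over all genes and 0.19 over named genes), beside 21.5% of named and 4.75% of all genes that were DEG. These were FAP (1.68) and the contractile genes TAGLN (2.32, SE 0.70, edgeR adjusted p = 0.0992) and MYL9 (1.14), while CD248 had −2.04. TAGLN ran from 60.3 to 1006 CPM among the luteolysis dogs. MCAM, the remaining mural marker found, had 0.83 and was not a DEG. Of the 11 markers 7 had a negative log2 ratio, as CD248 did, and 4 a positive one. Between mid-gestation and antigestagen all 11 had a positive log2 ratio (median 0.44, −0.018 over all genes and −0.068 over named genes). PDGFRA had 0.53 and CD248 −0.032. The share of all genes with a positive log2 ratio was not counted. The sum of the 11 overlapped, at 4275 to 17029 CPM at mid-gestation and 4227 to 10274 CPM after antigestagen. Of the 11 markers 0 were DEG by edgeR, DESeq2 or limma-voom. When luteal regression was compared with mid-gestation and with antigestagen, 0 were DEG by edgeR and DESeq2, and 0 and 1 by limma-voom. For the difference between natural and induced luteolysis 0 were DEG by edgeR (3 without Amy), 1 by DESeq2 and 5 by limma-voom. Of all genes, 684 were DEG in this difference by edgeR without Amy and 2549 by limma-voom. The counts of 1, 4 and 3 in the contrasts with luteolysis were 0, 0 and 0 without Senta or with the dogs of the 2 groups alone.

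**Figure D4:**
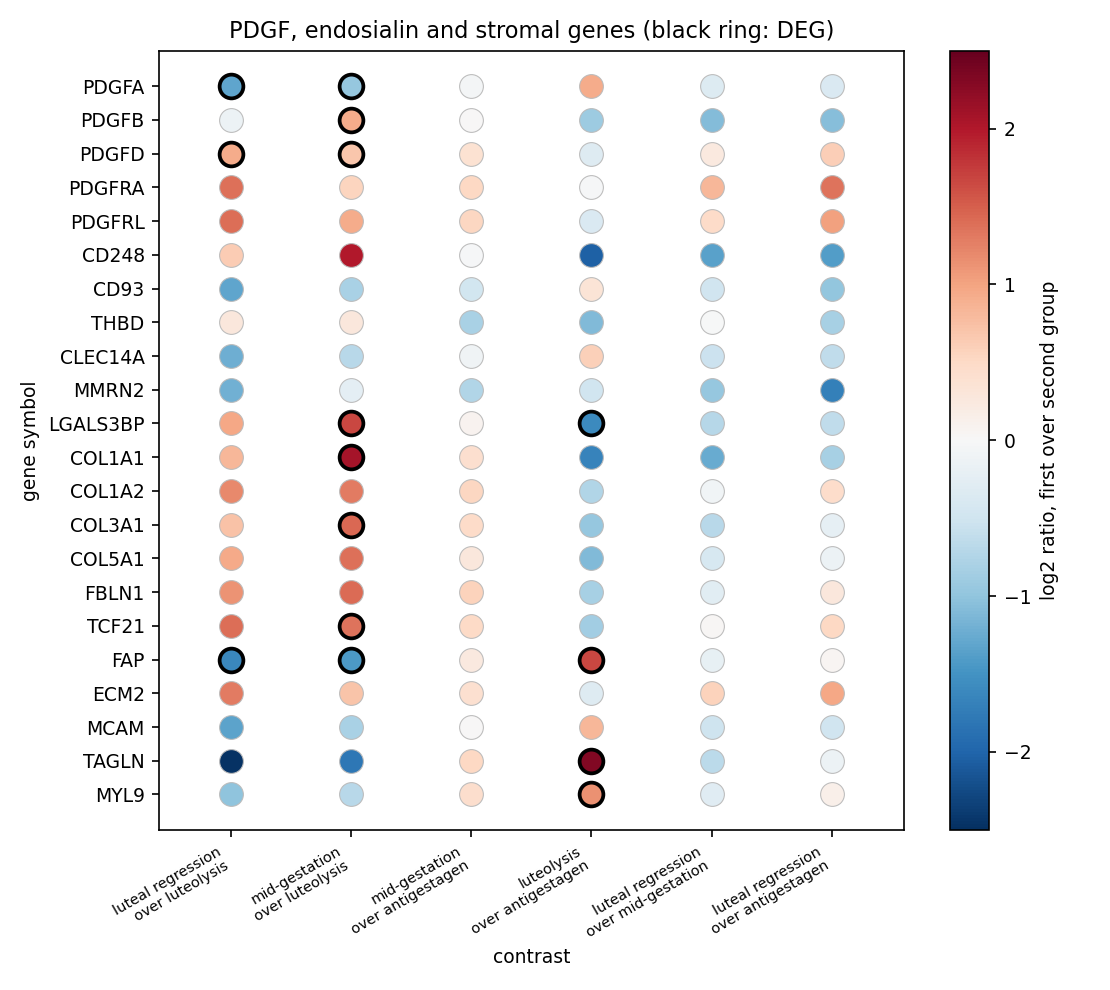
Log2 ratio (colour, red for higher in the first group) of PDGF genes, endosialin relatives and partners, fibroblast and mural markers (rows) in 6 contrasts (columns); a black ring marks DEG by edgeR, and PDGFRA and CD248 carry none in the contrasts that chose them because they were not tested there. In “mid-gestation over luteolysis” the matrix genes are red with CD248 (COL1A1 2.09, LGALS3BP 1.68), and FAP (−1.43) and TAGLN (−1.81) are blue.

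Markers of other cell types moved in the same contrasts. Of 12 endothelial markers 6 were found, and their summed level was 507 to 1019 CPM in luteolysis, 298 to 832 CPM at mid-gestation, 548 to 1094 CPM after antigestagen and 336 to 352 CPM in luteal regression. PECAM1 and TEK were DEG lower in luteal regression than in luteolysis (log2 ratios −1.86 and −1.34), and PECAM1 also lower at mid-gestation than in luteolysis (−1.24). In the latter contrast 5 of the 6 had a negative log2 ratio, with −1.18 for FLT1, −0.56 for ERG and −0.10 for VWF, whereas ENG had 0.93, and these 4 were not DEG. Of 12 leukocyte markers 6 were found, and their sum was 189 to 595 CPM in luteolysis, 142 to 258 CPM at mid-gestation, 174 to 323 CPM after antigestagen and 100 to 101 CPM in luteal regression. LYZ, lysozyme of phagocytes, was a DEG with a higher mean in luteolysis than in each of the other groups. Its log2 ratios were −2.03, −3.10 and 2.40 against mid-gestation, luteal regression and antigestagen. Within luteolysis it ran from 54.6 to 414 CPM, and the lowest dog was within the ranges of mid-gestation (40.3 to 91.6 CPM) and antigestagen (40.5 to 71.6 CPM). ITGAM and MRC1 were DEG lower in luteal regression than in luteolysis (−2.03 and −1.47). The list did not move together: CD3E, of T cells, had log2 ratios of 1.74 for mid-gestation over luteolysis and −1.26 for luteolysis over antigestagen, opposite to LYZ, and ITGAM had −0.075 and −0.11, and neither was a DEG there. AIF1 and TYROBP were not DEG in any contrast. The 2 luteal cell markers found of 10, CYP17A1 and PRLR, were not DEG by edgeR. Their sum was 206 to 408 CPM in luteolysis and 335 to 912 CPM at mid-gestation. It was 184 to 365 CPM after antigestagen and 693 to 923 CPM in luteal regression. The sum hides opposite signs in “mid-gestation over antigestagen”. CYP17A1 averaged 473 and 97.9 CPM (log2 ratio 2.27, edgeR adjusted p = 0.305). PRLR averaged 104 and 153 CPM (log2 ratio −0.55, edgeR adjusted p = 0.644). In this contrast 0% of all genes were DEG by edgeR. Of 8 markers of other ovarian and blood cells FSHR, the receptor of granulosa cells for follicle-stimulating hormone, was found, and it was a DEG higher after antigestagen than in luteolysis (log2 ratio −1.08). No marker found was at 0 in any dog. The part of these cells in the levels of PDGFRA and CD248 was not tested.

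Likeness to each gene was measured as Pearson's r of log2 CPM over the 15 dogs, among genes with a name, as a description. The points are libraries of 4 groups, so that genes that share group differences score high. Most like PDGFRA were FRMPD4 (r = 0.94), LAMA2 (0.91), NLGN3 (0.91), ZNF395 (0.90) and GREB1L (0.90). LAMA2, a laminin chain of basement membranes, was at 358 CPM on average in luteal regression, 206 CPM at mid-gestation, 146 CPM after antigestagen and 127 CPM in luteolysis, the order of PDGFRA. Of genes without a name, 11 had a higher r with PDGFRA than GREB1L.

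Most like CD248 were SCAF1 (r = 0.91), PRKD2 (0.91), EPN1 (0.89), HOXB8 (0.89) and EPHX3 (0.88), and 0 unnamed genes had a higher r. EPHX3 had means of 8.92 CPM at mid-gestation, 9.59 CPM after antigestagen, 3.51 CPM in luteolysis and 3.69 CPM in luteal regression. The group means of HOXB8 were at most 1.44 CPM. When r was taken over the deviations of each dog from its group mean, PDGFRA was most like NUCKS1 (0.93), RALGPS2 (0.93), NYNRIN (0.92), LRRC16A (0.91) and FRMPD4 (0.90), and CD248 most like PRKD2 (0.87), EHD2 (0.87), CARM1 (0.87), RNPEP (0.87) and EXOC3L1 (0.86). FRMPD4 and PRKD2 were thus the named genes on both lists of PDGFRA and of CD248, respectively. By deviations, 30 unnamed genes had a higher r with PDGFRA than FRMPD4, and 8 a higher r with CD248 than PRKD2. The group means of FRMPD4 lay between 1.83 and 9.01 CPM.

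**Figure D5:**
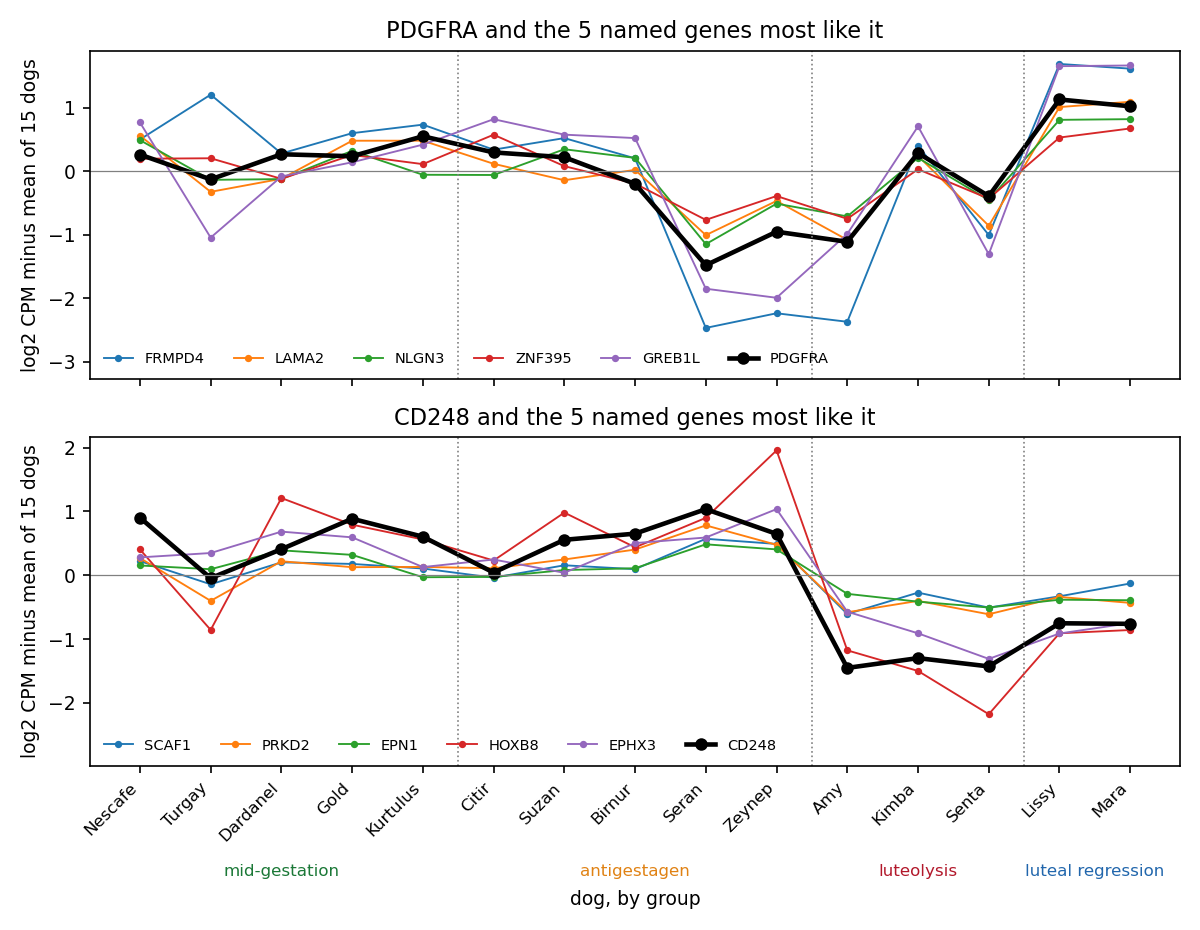
Log2 CPM minus the mean of the 15 dogs (y axis) for PDGFRA (top) and CD248 (bottom) in black and for the 5 named genes of highest r with each in colour, with dogs ordered by group along the x axis and dotted lines between groups. PDGFRA and its 5 genes are low in Seran, Zeynep and Amy and high in Lissy and Mara, and CD248 and its 5 genes are below their means in all luteolysis and luteal regression dogs.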

How the data were processed

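Messenger RNA of whole CL was measured in 15 dogs by single-end RNA-Seq of poly-A selected RNA. The authors aligned the reads to CanFam3.1 with STAR 2.5.1b, obtained gene counts for Ensembl identifiers with featureCounts and deposited them unnormalized for 23630 genes (tools and build per the submitters' processing notes). Strand setting and Ensembl release were not given in the sources used here. Counts of 10000 or more (3148 values) hold 4 significant digits. Nescafe was kept at mid-gestation after its title and condition, whereas its description has the number of the antigestagen group.

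In R 4.3.3, the 14922 genes whose mean count reached 10 in any group were scaled with TMM, fitted over all dogs with edgeR 4.0.16 and tested two-sided with its quasi-likelihood F-test where a group of the contrast reached that mean, with Benjamini-Hochberg adjustment over all genes tested in the contrast. SE is the absolute log2 ratio divided by the square root of F. Log2 CPM used a prior count of 2. Scripts were tested on simulated data. Alternatives were DESeq2 1.42.0, limma 3.58.1 (voom with quality weights), other scalings and filters, the dogs of 2 groups alone and each dog left out. P-values measure the spread between dogs.

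Members, lists and tests were chosen with earlier results of these data known. Genes named are PDGFRA and CD248, all named genes of the PDGF and endosialin lists, of other lists those called (up to 4 per list and contrast by p-value) and the 5 genes most like each member, by both measures. Uncalled genes of other lists that are named were chosen after their values were seen. Names come from the additional files (2967 of the genes in the fit). The fold changes and p-values in those files were not used. No sequence or coordinate was used.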

Additional observations from a re-analysis of the deposited data

How the results depend on the processing

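Log2 ratios of PDGFRA and CD248 moved little with scaling, test and filter, while the calls against luteal regression depended on the test. PDGFRA became a DEG in “luteal regression over mid-gestation” with limma-voom (0.81) and the dogs of the 2 groups alone (0.84), and in “luteal regression over antigestagen” with DESeq2 (1.36) and limma-voom (1.25). CD248 became a DEG over mid-gestation with DESeq2 (−1.35), limma-voom (−1.42) and the 2 groups alone (−1.35), and over antigestagen with DESeq2 (−1.37) and limma-voom (−1.36). CD248 in “mid-gestation over antigestagen” turned to 0.063 with limma-voom. The cause was not tested.

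With 1 dog left out at a time (15 fits), log2 ratios of CD248 ran from −1.50 to −1.24 in “luteal regression over antigestagen”, from −1.44 to −1.25 in “luteal regression over mid-gestation” and from −0.14 to 0.095 in “mid-gestation over antigestagen”. PDGFRA in “luteolysis over antigestagen” ran from −0.43 to 0.25. A lone luteal regression dog was assumed to vary like the other groups. The log2 ratio of CD248 over PDGFRA reads ran from −1.02 to −0.32 (10 fits) and was −0.70 with 2 reads added.

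DEG among the 11 stromal and mural markers numbered 4 with DESeq2, 7 with limma-voom and 0 with the 2 groups alone in “luteal regression over luteolysis” (1 in the report), 7, 9 and 0 in “mid-gestation over luteolysis” (4), and 7 with limma-voom and 0 with the 2 groups alone in “luteolysis over antigestagen” (3). Over all alternatives of test, scaling, filter and groups, DEG of all genes reached 3646, 3220 and 2833 in these contrasts. Nothing is therefore read from the marker counts alone. In “luteal regression over antigestagen”, where limma-voom called 2408 of 14578 genes, it gave 1 of the markers. For the difference between natural and induced luteolysis, where limma-voom called 2549 of 14922 genes, DESeq2 gave 1 of the markers and limma-voom 5. Without 1 dog they numbered 0 to 3, 0 to 5, 0 to 4 and, for the difference, 0 to 3. In “luteal regression over luteolysis” the number became 3 without Turgay or Amy, 2 without Kimba, and 0 without Senta, Lissy or Mara. In “mid-gestation over luteolysis” it became 2 without Nescafe, Dardanel, Citir, Birnur, Lissy or Mara, 1 without Gold and 0 without Senta. In “luteolysis over antigestagen” it became 1 without Citir, Suzan, Birnur, Seran, Lissy or Mara and 0 without Senta. The difference had 3 without Amy.

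DEG of all genes were 754 in “luteal regression over luteolysis” and lay between 0 and 3646 over the other settings, 1197 (422 to 3220) in “mid-gestation over luteolysis” and 687 (3 to 2833) in “luteolysis over antigestagen”. With edgeR 0 genes were DEG in the remaining contrasts, and up to 87 in “mid-gestation over antigestagen”, 2741 in “luteal regression over mid-gestation”, 2408 in “luteal regression over antigestagen” and 2549 in the difference with DESeq2 or limma-voom. Without 1 dog they lay between 0 and 1593, 112 and 2434, and 6 and 2169 in the contrasts with luteolysis, the low ends without Lissy, Senta and Senta and the high ends without Amy. Where edgeR gave 0, single dogs gave up to 8 (without Citir), 1 (without Mara), 114 and 684 (both without Amy). The fewest reads in a dog were 60 for CD248 and 460 for PDGFRA, while the SE of CD248 was the smaller in every contrast. No paired analysis was possible because the labels number no replicates across groups.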
